A study of Mus musculus with 27 samples.

Results

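The genes described here are 8 named components of the Notch pathway in TX1072 mouse embryonic stem cells. They are the ligand genes Dll1 and Jag1, the receptor genes Notch1 and Notch3, Rbpj, which encodes the DNA-binding factor of the pathway, and the target genes Hes1, Hey1 and Nrarp. They were picked by name, since SPEN is a corepressor of RBPJ, but with earlier results of these data known. They were matched by symbol among 53801 genes counted in 27 RNA sequencing libraries. TX1072 is a hybrid female line, with 1 genome from BL/6J and 1 from CAST-EiJ mice. Both lines used here carry SPEN fused to an auxin-inducible degron (SPEN-AID). The SPOC line also carries BglG-GFP-SPOC, a fusion of an RNA-binding protein, a fluorescent protein and the SPOC domain of SPEN, and the GFP line carries BglG-GFP, which lacks that domain. In each line, Dox+Auxin cells had auxin for 12 h and then doxycycline (1 ug/mL) with auxin for 24 h, Dox cells had doxycycline for 24 h, and untreated cells had neither. Doxycycline switches on Xist, the RNA that silences the X chromosome. Each group held 5 libraries in the SPOC line and 4 in the GFP line, while the design text speaks of 4 biological replicates. All cells grew with serum, LIF, CHIR99021 (3 uM) and PD0325901 (1 uM). No group had auxin alone and no SPEN protein values were used here, so auxin and the loss of SPEN cannot be told apart. Each construct was in 1 line, so construct and line cannot be told apart either.

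In the Notch pathway a ligand on one cell binds a receptor on its neighbour, the receptor is cut by proteases, and its intracellular domain enters the nucleus and joins RBPJ and a Mastermind protein to switch genes on. Without that domain, RBPJ on DNA recruits corepressors, among them SPEN, whose SPOC domain binds the NCoR and SMRT complexes. Genes of the Hes and Hey families, which encode repressors, and Nrarp, which encodes a feedback inhibitor of the pathway, are textbook targets. Embryonic stem cells renew without Notch signalling, and its activation favours their neural differentiation.

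RBPJ is known to bind DNA with the core letters TGGGAA, strongest within GTGGGAA. Both were searched, on both strands (TTCCCA and TTCCCAC on the other), in the 250 bases before each gene start in the RefSeq promoter table (GRCm38.p6), and each longer match also holds the core. The table matched 6 of the 8 genes with 8 entries, with Hes1 and Hey1 absent. GTGGGAA was in 0 of these 8 windows and in 5.42% of all 32851 windows, and the core was in 2, both of Rbpj and overlapping each other, and in 21.6% of all windows. The windows of Nrarp, Notch1, Jag1 and Notch3 are shown because these genes rose with Dox+Auxin in both lines, that of Rbpj because this gene fell, and that of Spen because its mRNA rose most. Each runs 5′ to 3′ on the gene's strand, up to the first base in a GENCODE M21 exon, with core letters in capitals. The windows of Notch1 and Rbpj and a window of Dll1 lie inside the GENCODE M21 spans of these genes given below. They thus do not lie before the outermost start in that annotation. A match describes letters and is not evidence of binding.
Nrarp, chr2:25180508-25180757, plus strand: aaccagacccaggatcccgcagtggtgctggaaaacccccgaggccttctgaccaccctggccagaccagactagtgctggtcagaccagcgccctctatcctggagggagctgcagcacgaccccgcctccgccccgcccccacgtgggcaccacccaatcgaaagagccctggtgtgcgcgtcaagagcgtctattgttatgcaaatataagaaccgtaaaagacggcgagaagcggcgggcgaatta
Notch1, chr2:26503825-26504072, minus strand: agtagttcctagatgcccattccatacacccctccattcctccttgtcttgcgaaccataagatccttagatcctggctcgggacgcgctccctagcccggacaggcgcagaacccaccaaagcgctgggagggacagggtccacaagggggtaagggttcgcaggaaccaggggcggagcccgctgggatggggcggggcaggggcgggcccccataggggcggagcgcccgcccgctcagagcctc
Jag1, chr2:137116645-137116770, minus strand: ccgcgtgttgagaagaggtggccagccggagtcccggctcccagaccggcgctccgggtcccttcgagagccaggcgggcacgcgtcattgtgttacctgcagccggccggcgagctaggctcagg
Notch3, chr17:32166891-32167140, minus strand: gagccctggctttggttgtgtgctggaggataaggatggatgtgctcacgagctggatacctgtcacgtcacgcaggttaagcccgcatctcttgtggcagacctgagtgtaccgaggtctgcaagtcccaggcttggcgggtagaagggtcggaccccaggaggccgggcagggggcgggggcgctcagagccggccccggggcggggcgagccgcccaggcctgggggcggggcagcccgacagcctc
Rbpj, chr5:53590096-53590213, plus strand: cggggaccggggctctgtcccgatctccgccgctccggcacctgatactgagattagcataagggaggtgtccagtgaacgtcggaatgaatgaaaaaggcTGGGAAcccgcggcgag
Spen, chr4:141538598-141538847, minus strand: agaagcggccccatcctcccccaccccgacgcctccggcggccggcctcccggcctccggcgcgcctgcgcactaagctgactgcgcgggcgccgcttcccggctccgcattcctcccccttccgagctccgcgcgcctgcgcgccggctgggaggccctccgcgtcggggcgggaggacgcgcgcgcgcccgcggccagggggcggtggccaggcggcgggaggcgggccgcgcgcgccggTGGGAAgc
The core lay 149 to 144 bases before the start of the Rbpj entry shown and 8 to 3 bases before that of Spen, where the letters before it complete GTGGGAA. The overlap of both Rbpj windows held TTCCCA, the core on the other strand, at 1 position outside the stretch shown, so this single match counts in each window.

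Libraries held 28936459 to 45489094 counts. Levels are given as CPM, read counts scaled to the size of the library, after TMM scaling, and all 8 genes passed the filter on low counts. The 7 naive pluripotency markers summed to between 4570 and 5499 CPM in all libraries, with Nanog at 872.3 CPM or more. Xist stood at 177.8 CPM in the library labelled SPOC untreated replicate 2, against 1.04 to 1.69 CPM in the other libraries of its group. The calls of the 8 genes in every comparison were as many, in each direction, without that library. Because RNA was measured in bulk, fewer cells with a transcript and less RNA per cell cannot be told apart.

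Spen mRNA, from the targeted gene, was at 984.5, 982.9, 973.3, 1242 and 1075 CPM in SPOC Dox+Auxin cells and at 328.6 to 368.7 CPM in SPOC Dox cells. In GFP Dox+Auxin cells it was at 781.8, 862.4, 634.1 and 1164 CPM, against 178 to 214.5 CPM in GFP Dox cells. All Dox+Auxin libraries were thus above all Dox libraries, and log2 fold changes were 1.58 (SE 0.11) in the SPOC line and 2.13 (SE 0.12) in the GFP line. The degron acts on the protein, so the transcript does not show that SPEN was depleted. In untreated cells Spen was at 343 ± 11.4 CPM in the SPOC line and 174 ± 12.1 CPM in the GFP line (SD, n = 5 and 4), and the SPOC construct holds part of the Spen sequence.

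Dox+Auxin against Dox asks what differs with auxin, given to deplete SPEN, while Xist is on. Xist was at 338.2 ± 48.2 CPM in SPOC Dox+Auxin cells and 385.1 ± 62.3 CPM in SPOC Dox cells. In the GFP line it was at 500.3 ± 109 CPM with Dox+Auxin and 839.6 ± 88.1 CPM with Dox, without overlap. Xist was not called in either line (edgeR adjusted p = 0.88 and 0.46 in that order). Nor was it called between the lines with Dox, though these groups did not overlap. The part of Xist levels in the results was not tested. Jag1, Notch1, Notch3, Hey1 and Nrarp rose in both lines and Rbpj fell in both. Dll1 fell in the SPOC line and rose in the GFP line, and Hes1 fell in the GFP line and was not called in the SPOC line. The largest rise was that of Hey1 in the GFP line, 2.35-fold, and the other calls ran from 0.492-fold to 2.04-fold. In the SPOC line 5 of the 8 genes rose and 2 fell at an adjusted p under 0.05 (edgeR quasi-likelihood test, Benjamini-Hochberg adjustment over 18363 genes), where 32.0% of all genes tested were called, 16.6% higher and 15.4% lower. In the GFP line 6 rose and 2 fell, where 47.6% of all genes were called, 24.7% higher and 22.9% lower. The median log2 fold change of the 8 genes was 0.38 in the SPOC line, where that of all genes was -0.01, and 0.65 in the GFP line, where that of all genes was 0.00. Libraries of both groups did not overlap for 4 of the 8 genes in the SPOC line (18.6% of all genes) and for 7 in the GFP line (42.2% of all genes). As the 8 genes were chosen with earlier results of these data known, these shares and medians describe them and do not test the pathway.

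**Figure D1:**
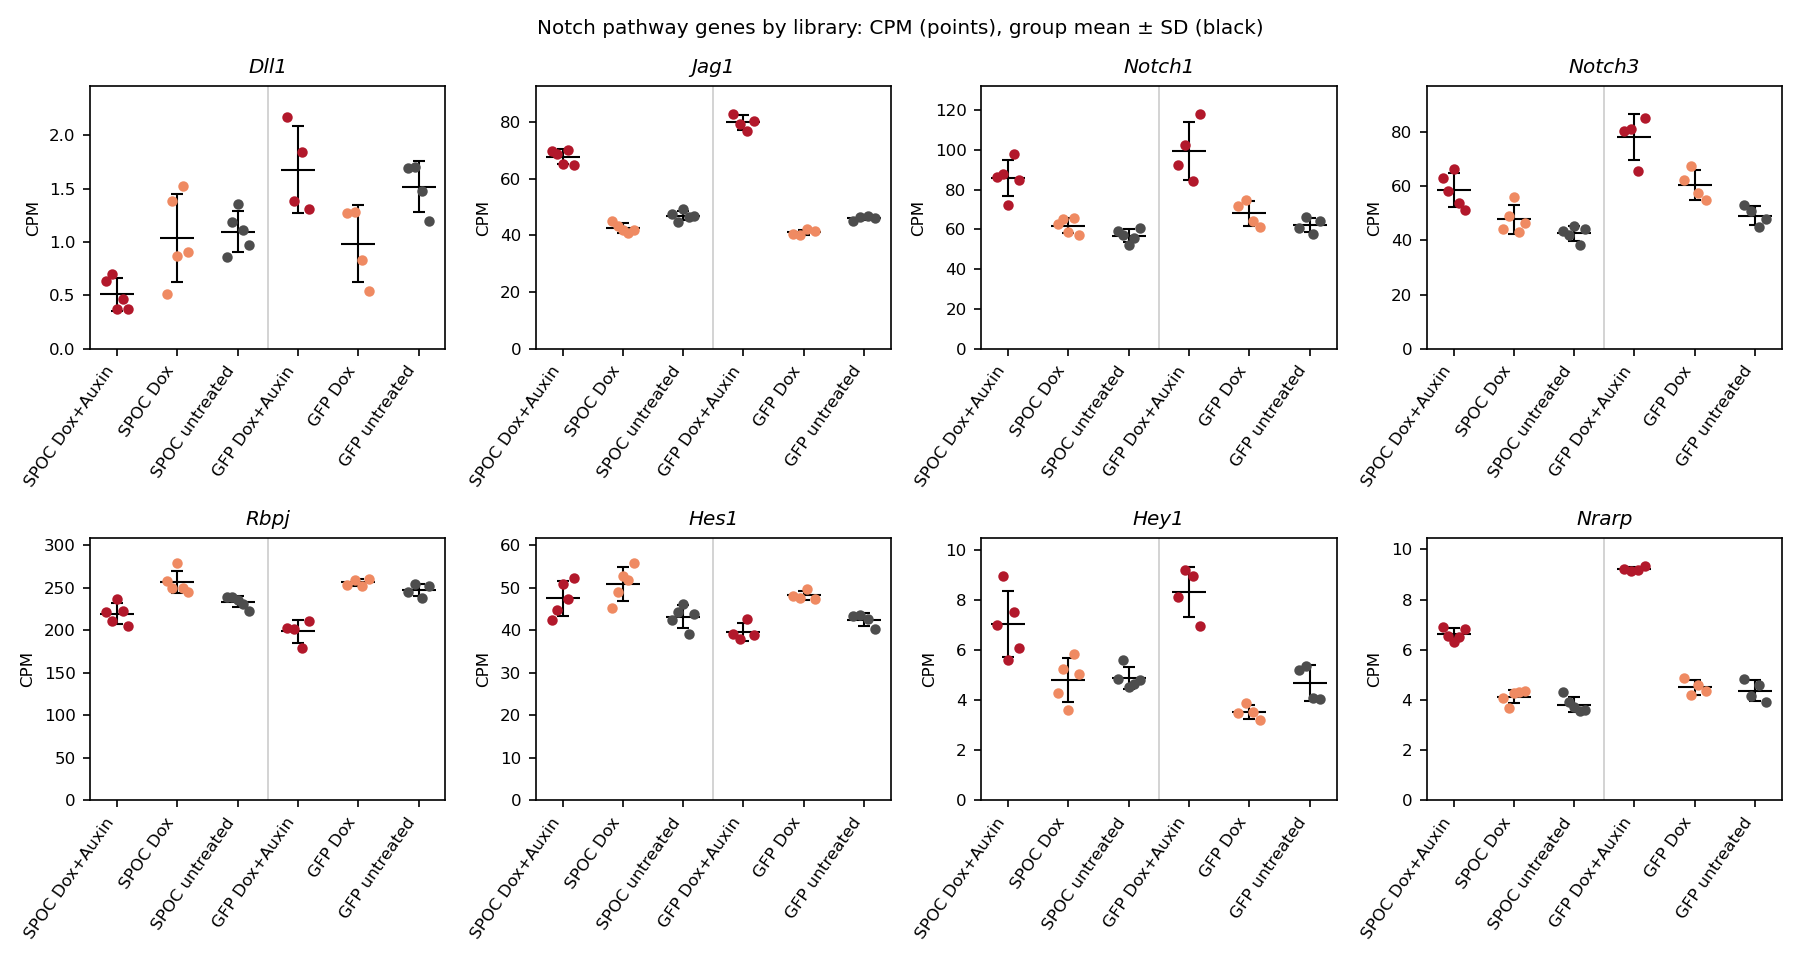
CPM (linear axis from 0) of the 8 genes in each library, as points, with the mean and SD of each group in black and replicates in number order. In both lines, Jag1 and Nrarp sit above every Dox and untreated library in the Dox+Auxin groups, while Dll1 is low in SPOC Dox+Auxin cells and scattered elsewhere.

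Jag1 (ENSMUSG00000027276, chromosome 2, 137081456 to 137116644, GRCm38) encodes a ligand of the Jagged class. It was at 69.7, 68.6, 65.0, 70.2 and 64.7 CPM in SPOC Dox+Auxin cells, against 45.1, 43.1, 41.9, 40.8 and 41.8 CPM in SPOC Dox cells. GFP Dox+Auxin cells held 82.8, 79.4, 76.6 and 80.3 CPM, against 40.5, 40.2, 42.2 and 41.4 CPM in GFP Dox cells. No Dox+Auxin library came near a Dox library in either line, and every GFP Dox+Auxin library was above every SPOC Dox+Auxin library. The log2 fold change was 0.67 (SE 0.03, adjusted p = 9.5e-15) in the SPOC line and 0.96 (SE 0.04, adjusted p = 3.3e-18) in the GFP line. Among the 8 genes, Jag1 had the smallest error.

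Dll1 (ENSMUSG00000014773, chromosome 17, 15367354 to 15376872) encodes a ligand of the Delta class and was the scarcest of the 8, with 12 to 85 counts per library. It was at 0.639, 0.705, 0.372, 0.468 and 0.372 CPM in SPOC Dox+Auxin cells, against 0.514, 1.39, 0.870, 1.52 and 0.911 CPM in SPOC Dox cells. SPOC Dox replicate 1 was the one Dox library within the range of the Dox+Auxin libraries. The GFP Dox+Auxin libraries held 2.17, 1.39, 1.85 and 1.31 CPM, against 1.27, 1.29, 0.833 and 0.543 CPM in GFP Dox cells, and these groups only just failed to overlap. The log2 fold change was -1.02 (SE 0.27, adjusted p = 0.0039) in the SPOC line and 0.76 (SE 0.25, adjusted p = 0.012) in the GFP line. The call in the GFP line was lost without GFP Dox replicate 4 (adjusted p = 0.06) and without GFP Dox+Auxin replicate 1 (adjusted p = 0.068).

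Notch1 (ENSMUSG00000026923, chromosome 2, 26457903 to 26516663) and Notch3 (ENSMUSG00000038146, chromosome 17, 32120820 to 32166852) encode receptors. Notch1 was at 86.4, 87.7, 72.4, 97.8 and 84.7 CPM in SPOC Dox+Auxin cells, against 62.9, 65.3, 58.6, 65.6 and 57.3 CPM in SPOC Dox cells. The GFP line gave 92.5, 102.6, 84.4 and 117.8 CPM with Dox+Auxin, against 71.7, 75.0, 64.1 and 61.4 CPM in GFP Dox cells. The groups did not overlap in either line, although the Dox+Auxin libraries spread widely. The log2 fold change of Notch1 was 0.47 (SE 0.08, adjusted p = 6.1e-05) in the SPOC line and 0.54 (SE 0.09, adjusted p = 1.5e-05) in the GFP line.

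Notch3 was at 63.0, 58.2, 66.5, 53.9 and 51.2 CPM in SPOC Dox+Auxin cells, against 44.3, 49.1, 56.1, 43.0 and 46.4 CPM in SPOC Dox cells. GFP cells with Dox+Auxin held 80.3, 81.0, 65.8 and 85.2 CPM, against 62.4, 67.5, 57.3 and 54.9 CPM in GFP Dox cells. Here the groups overlapped in both lines, through Dox replicate 3 in the SPOC line and through Dox+Auxin replicate 3 and Dox replicate 2 in the GFP line. The log2 fold change of Notch3 was 0.29 (SE 0.08, adjusted p = 0.0077) in the SPOC line and 0.37 (SE 0.09, adjusted p = 0.0016) in the GFP line. In the GFP Dox+Auxin group, replicate 3 held the lowest and replicate 4 the highest CPM of Notch1, Notch3, Rbpj and Spen alike. Of these, Rbpj fell with Dox+Auxin while the others rose. Dll1, Jag1, Hes1, Hey1 and Nrarp did not share this pattern, which was picked out after the values were seen.

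Rbpj (ENSMUSG00000039191, chromosome 5, 53466152 to 53657362) encodes the factor through which the pathway acts on DNA. It was at 221.9, 211.4, 237.5, 222.3 and 204.8 CPM in SPOC Dox+Auxin cells, against 258.2, 250.4, 278.8, 250.2 and 245.6 CPM in SPOC Dox cells. GFP Dox+Auxin libraries stood at 202.3, 202.2, 179.6 and 211.2 CPM, against 253.1, 259.8, 251.9 and 260.6 CPM in GFP Dox cells. Every Dox+Auxin library was below every Dox library of its line. Rbpj fell by 0.22 on the log2 scale (SE 0.04, adjusted p = 4.5e-05) in the SPOC line and by 0.37 (SE 0.04, adjusted p = 4.0e-08) in the GFP line.

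Hes1 (ENSMUSG00000022528, chromosome 16, 30064384 to 30067796) and Hey1 (ENSMUSG00000040289, chromosome 3, 8663359 to 8667256) encode related repressors of the basic helix-loop-helix class, and they moved differently. Hes1 was at 42.4, 44.7, 50.9, 47.3 and 52.2 CPM in SPOC Dox+Auxin cells, against 45.1, 49.0, 52.7, 51.7 and 55.7 CPM in SPOC Dox cells. The GFP line had 39.0, 37.8, 42.6 and 38.9 CPM with Dox+Auxin, against 48.0, 47.6, 49.8 and 47.2 CPM in GFP Dox cells. The groups overlapped in the SPOC line and not in the GFP line. Hes1 had log2 fold changes of -0.10 (SE 0.05, adjusted p = 0.16) in the SPOC line and -0.28 (SE 0.06, adjusted p = 2.6e-04) in the GFP line.

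Hey1 was at 7.03, 8.96, 5.61, 7.55 and 6.10 CPM in SPOC Dox+Auxin cells, against 4.28, 5.24, 3.60, 5.87 and 5.07 CPM in SPOC Dox cells. GFP Dox+Auxin libraries held 8.14, 9.20, 8.99 and 6.99 CPM, against 3.49, 3.88, 3.53 and 3.23 CPM in GFP Dox cells. The groups overlapped through Dox+Auxin replicate 3 and Dox replicate 4 in the SPOC line and stood well apart in the GFP line. Hey1 had log2 fold changes of 0.55 (SE 0.12, adjusted p = 7.3e-04) in the SPOC line and 1.23 (SE 0.14, adjusted p = 1.2e-08) in the GFP line.

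Nrarp (ENSMUSG00000078202, chromosome 2, 25180758 to 25183339) was at 6.92, 6.57, 6.30, 6.53 and 6.81 CPM in SPOC Dox+Auxin cells, against 4.08, 3.69, 4.26, 4.31 and 4.34 CPM in SPOC Dox cells. GFP cells given Dox+Auxin stood at 9.21, 9.13, 9.16 and 9.32 CPM, against 4.89, 4.21, 4.61 and 4.34 CPM in GFP Dox cells. The Dox+Auxin libraries of both lines were tight and clear of the Dox libraries. The log2 fold change was 0.68 (SE 0.07, adjusted p = 2.0e-08) in the SPOC line and 1.03 (SE 0.08, adjusted p = 5.0e-12) in the GFP line. Whether reads were counted by strand is unknown, and genes on the other strand overlap exons of Nrarp (Gm38287, 2 to 12 counts per library), Notch1 (0610009E02Rik, 7 to 27 counts, and Gm13568, 0 to 4), Notch3 (Gm17276, 9 to 28) and Dll1 (A930024N18Rik, 0 to 4), so reads of each pair cannot be told apart.

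**Figure D2:**
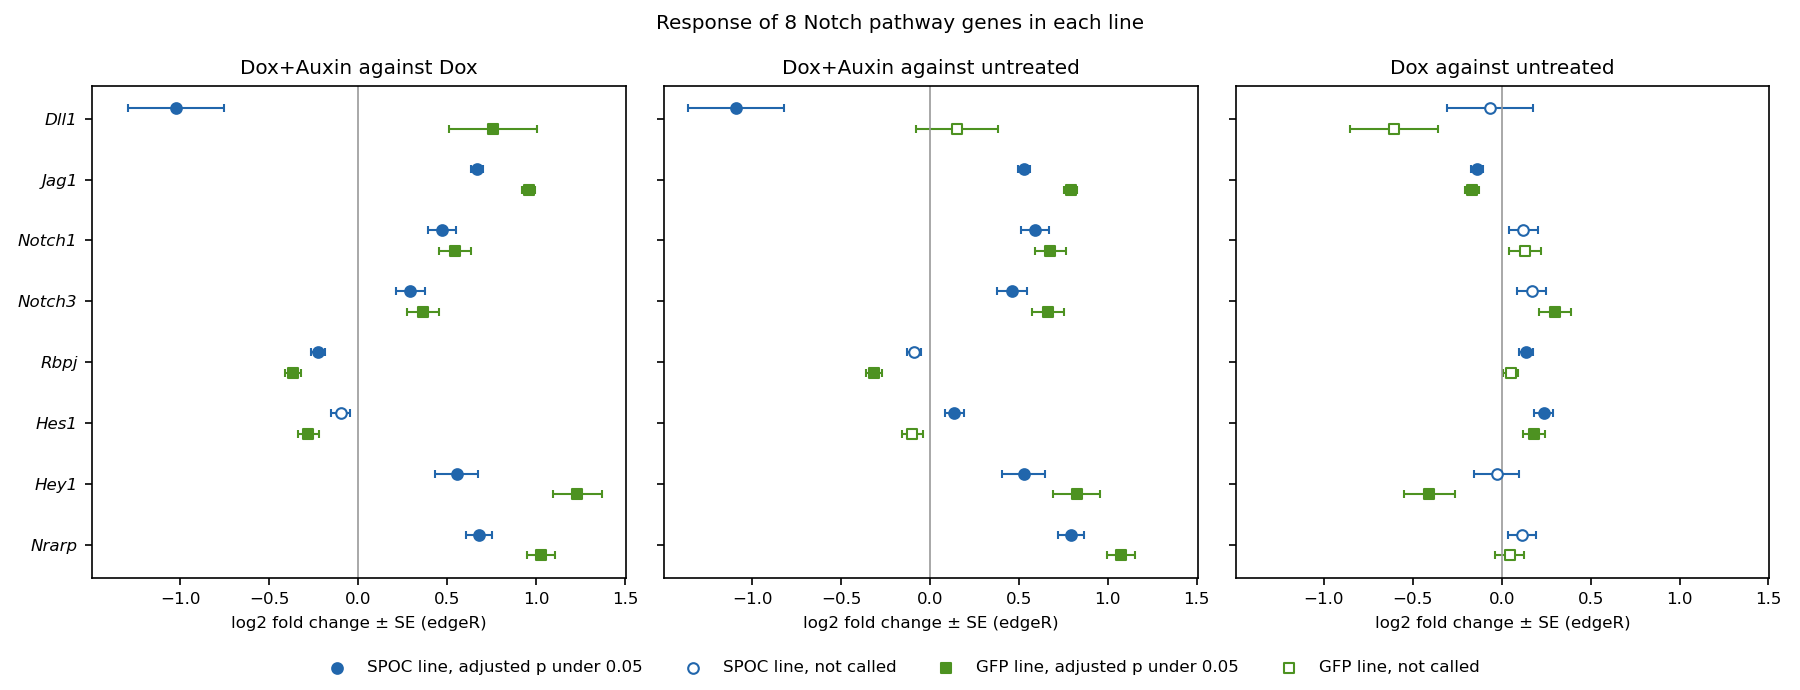
Log2 fold change ± SE (edgeR) of each gene in 3 comparisons, with circles for the SPOC line, squares for the GFP line and filled symbols for an adjusted p under 0.05. In the first panel Dll1 lies at -1.02 in the SPOC line and at 0.76 in the GFP line, and the other 7 genes have the same sign in both lines.

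The response to Dox+Auxin over Dox was then compared between lines, as the SPOC log2 fold change minus the GFP one. It was smaller in the SPOC line for Jag1, Hey1 and Nrarp, and opposite in sign for Dll1. These 4 of the 8 genes were called, all lower in the SPOC line, where 8.14% of all genes were called, 3.49% higher and 4.65% lower. The difference was -1.78 (SE 0.37, adjusted p = 0.0024) for Dll1, -0.29 (SE 0.05, adjusted p = 4.7e-04) for Jag1 and -0.68 (SE 0.18, adjusted p = 0.02) for Hey1. For Nrarp it was -0.35 (SE 0.11, adjusted p = 0.04), and this call was lost without any 1 of 13 libraries (adjusted p 0.05 to 0.087) and without the filter on low counts (adjusted p = 0.19). Those libraries were SPOC Dox replicates 3, 4 and 5, SPOC Dox+Auxin replicates 2, 3 and 4, GFP Dox replicates 2, 3 and 4, and GFP Dox+Auxin replicates 1, 2, 3 and 4.

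The difference was not called for Notch1 (-0.07, SE 0.12), Notch3 (-0.07, SE 0.12), Rbpj (0.14, SE 0.06) or Hes1 (0.18, SE 0.08), with adjusted p of 0.78, 0.79, 0.14 and 0.17 in that order. Within Dox+Auxin cells, 4 genes were lower and 2 higher in the SPOC line than in the GFP line, where 24.6% of all genes were called, 11.2% higher and 13.5% lower. Libraries of both lines did not overlap for 3 of the 8 genes, Dll1, Jag1 and Nrarp (17.5% of all genes). The lower genes were Dll1 (log2 fold change -1.71, SE 0.26), Jag1 (-0.24, SE 0.03), Notch3 (-0.41, SE 0.09) and Nrarp (-0.47, SE 0.07). Rbpj (0.14, SE 0.04, adjusted p = 0.012) and Hes1 (0.26, SE 0.06, adjusted p = 0.0011) were higher, and the Rbpj call was lost without GFP Dox+Auxin replicate 3 (adjusted p = 0.08) and with these groups alone in the fit (adjusted p = 0.06). Notch1 (-0.21, SE 0.08, adjusted p = 0.065) and Hey1 (-0.24, SE 0.12, adjusted p = 0.16) were not called, but Notch1 was called without SPOC Dox+Auxin replicate 4 (0.025) or GFP Dox+Auxin replicate 3 (0.016) and by DESeq2 (0.047), and Hey1 without SPOC Dox+Auxin replicate 2 (0.04).

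Within Dox cells, Hey1 was higher in the SPOC line (log2 fold change 0.44, SE 0.14, adjusted p = 0.037) and Notch3 lower (-0.34, SE 0.09, adjusted p = 0.012), where 10.7% of all genes were called, 5.36% higher and 5.33% lower. For 0 of the 8 genes were the lines apart without overlap (13.3% of all genes). The Notch3 call was lost without GFP Dox replicate 2 (adjusted p = 0.064). The Hey1 call was lost without any 1 of SPOC Dox replicates 2, 4 and 5 and GFP Dox replicates 1, 3 and 4 (adjusted p 0.076 to 0.12) and without the filter (adjusted p = 0.058). In untreated cells 0 of the 8 genes were called by edgeR and 0 by DESeq2, 2 had an unadjusted p under 0.05 in edgeR, and 11.6% of all genes were called by edgeR, 5.79% higher and 5.77% lower. The lines overlapped for each of the 8 genes, with 0 apart (12.9% of all genes). Notch3 was called with these groups alone in the fit (adjusted p = 0.022). The SPOC against GFP log2 fold changes there ran from -0.47 (Dll1, SE 0.23) to 0.06 (Hey1, SE 0.13).

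Dox+Auxin against untreated shares its Dox+Auxin libraries with the comparison above. In the SPOC line 6 genes rose and Dll1 fell, where 33.3% of all genes were called, 16.7% higher and 16.6% lower, and 6 of the 8 genes did not overlap between groups (19.1% of all genes). Nrarp rose by 0.79 (SE 0.07, adjusted p = 1.3e-09), Notch1 by 0.59 (SE 0.08, adjusted p = 3.1e-06), Jag1 by 0.53 (SE 0.03, adjusted p = 8.9e-13), Hey1 by 0.53 (SE 0.12, adjusted p = 0.0011) and Notch3 by 0.46 (SE 0.08, adjusted p = 1.1e-04) on the log2 scale. Dll1 was at 0.511 ± 0.154 CPM in SPOC Dox+Auxin cells and 1.10 ± 0.191 CPM in SPOC untreated cells (SD, n = 5 each), without overlap. Hes1 rose by 0.14 (SE 0.05, adjusted p = 0.049), a call lost with these groups alone in the fit (adjusted p = 0.083) and without any 1 of SPOC untreated replicates 1, 4 and 5 and SPOC Dox+Auxin replicates 3, 4 and 5 (adjusted p 0.055 to 0.16). Rbpj was not called (-0.09, SE 0.04, adjusted p = 0.075), but was called without SPOC Dox+Auxin replicate 3 (adjusted p = 0.017).

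In the GFP line 5 genes rose over untreated cells and Rbpj fell, where 38.2% of all genes were called, 19.9% higher and 18.4% lower, and 6 of the 8 genes did not overlap between groups (35.8% of all genes). Nrarp rose by 1.07 (SE 0.08, adjusted p = 4.2e-12), Hey1 by 0.82 (SE 0.13, adjusted p = 8.8e-06), Jag1 by 0.79 (SE 0.04, adjusted p = 5.5e-16), Notch1 by 0.68 (SE 0.09, adjusted p = 1.3e-06) and Notch3 by 0.67 (SE 0.09, adjusted p = 2.1e-06). Rbpj was at 198.8 ± 13.5 CPM in GFP Dox+Auxin cells and 247.5 ± 7.61 CPM in GFP untreated cells (SD, n = 4 each). Dll1 was at 1.68 ± 0.405 CPM in GFP Dox+Auxin cells and 1.52 ± 0.237 CPM in GFP untreated cells, and the log2 fold change of 0.15 (SE 0.23, adjusted p = 0.65) was not called. Hes1 was at 39.6 ± 2.09 CPM in GFP Dox+Auxin cells and 42.4 ± 1.57 CPM in GFP untreated cells, with overlap, and was not called either (-0.10, SE 0.06, adjusted p = 0.2).

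Dox against untreated asks what differs with doxycycline and Xist in cells not given auxin. Log2 fold changes of the calls ran from -0.41 (Hey1) to 0.30 (Notch3), both in the GFP line. In the SPOC line Rbpj and Hes1 rose and Jag1 fell, where 13.5% of all genes were called, 6.16% higher and 7.33% lower. Rbpj was at 256.7 ± 13.2 CPM in SPOC Dox cells and 233.9 ± 6.74 CPM in SPOC untreated cells (log2 fold change 0.13, SE 0.04, edgeR adjusted p = 0.02), and the call was lost without SPOC Dox replicate 3 (adjusted p = 0.092) or SPOC untreated replicate 5 (adjusted p = 0.055). Hes1 was at 50.9 ± 4.00 CPM in SPOC Dox cells and 43.2 ± 2.64 CPM in SPOC untreated cells (0.24, SE 0.05, edgeR adjusted p = 0.0027). Jag1 was at 42.5 ± 1.65 CPM in SPOC Dox cells and 46.9 ± 1.61 CPM in SPOC untreated cells (-0.14, SE 0.03, edgeR adjusted p = 0.0047).

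In the GFP line Notch3 and Hes1 rose and Jag1 and Hey1 fell with Dox, where 20.9% of all genes were called, 10.1% higher and 10.8% lower. Jag1 was at 41.0 ± 0.894 CPM in GFP Dox cells and 46.1 ± 0.692 CPM in GFP untreated cells (-0.17, SE 0.04, edgeR adjusted p = 0.0014). The calls of Notch3 (0.30, SE 0.09, adjusted p = 0.019), Hes1 (0.18, SE 0.06, adjusted p = 0.027) and Hey1 (-0.41, SE 0.14, adjusted p = 0.039) each depended on single libraries. Notch3 lost its call without GFP untreated replicate 3 or GFP Dox replicate 2 (adjusted p 0.07 and 0.079) and without the filter (0.065). Hes1 lost it without any 1 of GFP untreated replicates 3 and 4 and GFP Dox replicates 1 and 3 (adjusted p 0.051 to 0.092), and Hey1 without any 1 of GFP untreated replicates 1 and 2 and GFP Dox replicates 1, 3 and 4 (adjusted p 0.076 to 0.15). Dll1 was not called (-0.61, SE 0.25, adjusted p = 0.08), but was called without GFP Dox replicate 2 (0.045) and with these groups alone in the fit (0.044). In both lines Jag1 thus lay below untreated cells with Dox alone and above them with Dox+Auxin. Nrarp and Notch1 were not called with Dox alone in either line.

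**Figure D3:**
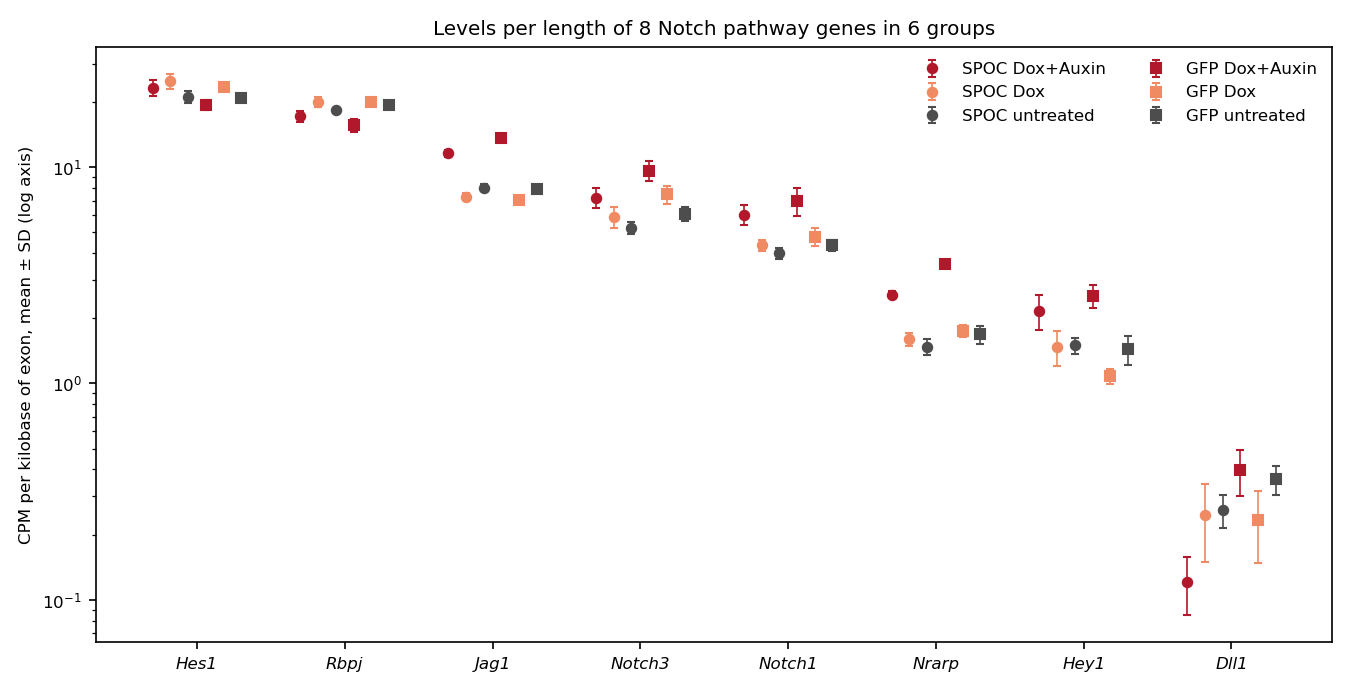
Mean ± SD of CPM per kilobase of exon (log axis) for the 8 genes in 6 groups, with circles for the SPOC line and squares for the GFP line. Hes1 and Rbpj lie between 15.6 and 25.0, and Dll1 lies between 0.121 and 0.398.

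To compare genes with each other, CPM was divided by the exon length of each gene in GENCODE M21. This length counts each base in any annotated exon of any transcript: 14232 for Notch1, 12750 for Rbpj, 8089 for Notch3 and 2037 for Hes1. Which transcripts the cells made was not measured, so the order of genes depends on this choice of length. In GFP untreated cells the order of mean levels was Hes1 (20.8 CPM per kilobase), Rbpj (19.4), Jag1 (7.91), Notch3 (6.08), Notch1 (4.37), Nrarp (1.69), Hey1 (1.44) and Dll1 (0.360). The ranges of Hes1 and Rbpj overlapped there, as did those of Nrarp and Hey1, and the other neighbours were apart. By this length, the DNA-binding factor and Hes1 were thus the most abundant of the 8 and the Delta-class ligand the least. In SPOC untreated cells the order was the same except that Hey1 stood just ahead of Nrarp (1.48 CPM per kilobase), with overlapping ranges.

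In SPOC Dox+Auxin cells Jag1 was at 11.6 ± 0.450, Notch3 at 7.24 ± 0.777 and Notch1 at 6.03 ± 0.638 CPM per kilobase (SD, n = 5), and the ranges of both receptors overlapped. In GFP Dox+Auxin cells Rbpj was at 15.6 ± 1.06 and Jag1 at 13.7 ± 0.442 CPM per kilobase (SD, n = 4), with overlapping ranges, and those of Notch3 (9.65 ± 1.05) and Notch1 (6.98 ± 1.01) overlapped too. In GFP Dox cells Notch3 (7.48 ± 0.692) and Jag1 (7.04 ± 0.153) overlapped. Nrarp (3.56 ± 0.0310) was clear of Hey1 (2.55 ± 0.308) in GFP Dox+Auxin cells, while these genes overlapped in SPOC Dox+Auxin cells (2.57 ± 0.0948 and 2.16 ± 0.402).

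The rest of the pathway was described from a list of 77 other genes sorted by role, of which 71 passed the filter. Dll4, Hes7, Heyl, Sox9, Il2ra and Ptcra, at 0 to 13 counts per library, did not. In Dox+Auxin against Dox, 18 of the 71 rose and 18 fell in the SPOC line (50.7% called, against 32.0% of all genes), with a median log2 fold change of 0.00. In the GFP line 31 rose and 18 fell (69.0% called, against 47.6% of all genes), with a median of 0.09. In both lines 30 genes of the list were called, 16 rising and 14 falling in each line, and none of these had opposite signs. The share of all genes called in both lines was not counted. Among the 8 genes, Dll1 was the one with opposite calls.

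**Figure D4:**
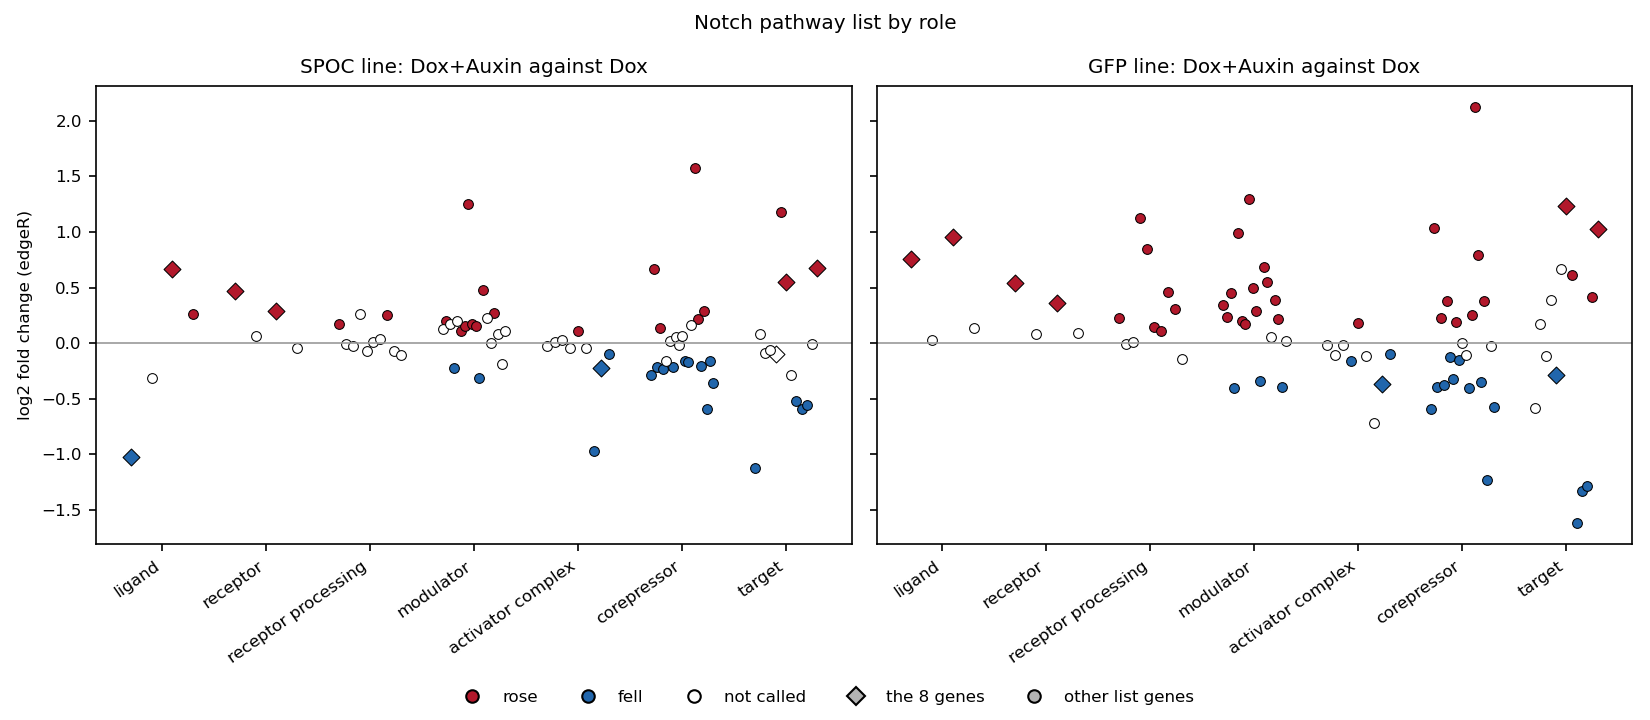
Log2 fold change (edgeR) of each tested pathway gene in Dox+Auxin against Dox by role, with the SPOC line on the left, diamonds for the 8 genes and circles for the other list genes. The highest circle in both panels is Spen, at 1.58 in the SPOC line and 2.13 in the GFP line.

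Of the other ligands and receptors, Jag2 had a log2 fold change of 0.26 (SE 0.10, adjusted p = 0.042) in the SPOC line and 0.14 (SE 0.10, adjusted p = 0.29) in the GFP line. The SPOC call of Jag2 was lost with these groups alone in the fit (adjusted p = 0.14), without the filter (adjusted p = 0.1) and without any 1 of Dox replicates 3, 4 and 5 and Dox+Auxin replicates 1, 2 and 4 (adjusted p 0.059 to 0.17). Notch2 and Notch4, which encode the other receptors, were not called in either line. Notch4 was at 127.6 ± 8.53 CPM in SPOC Dox+Auxin cells and 131.6 ± 7.84 CPM in SPOC Dox cells (SD, n = 5 each), and at 123.8 ± 4.21 CPM in GFP Dox+Auxin cells and 116.3 ± 9.33 CPM in GFP Dox cells (SD, n = 4 each). The rises of Notch1 and Notch3 were thus not shared by the calls of Notch2 and Notch4, although the difference between receptors was not tested.

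Of the 10 genes for proteases that process the receptors, 2 rose and 0 fell in the SPOC line (20% called, against 32.0% of all genes), and 7 rose and 0 fell in the GFP line (70% called, against 47.6% of all genes). Psen2, which encodes a catalytic subunit of gamma-secretase, was at -0.07 (SE 0.10) in the SPOC line and rose in the GFP line (0.31, SE 0.11, adjusted p = 0.021), a call lost without any 1 of GFP Dox replicate 2 and GFP Dox+Auxin replicates 1 and 3 (adjusted p 0.05 to 0.096). Aph1b and Aph1c, near-identical copies of a gamma-secretase subunit gene whose reads may be split, rose in the GFP line (1.13, SE 0.20, and 0.85, SE 0.21) and were at 0.27 (SE 0.19) and -0.07 (SE 0.20) in the SPOC line.

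Of the 18 modulators, 8 rose and 2 fell in the SPOC line (55.6% called, against 32.0% of all genes). In the GFP line 13 rose and 3 fell (88.9% called, against 47.6% of all genes). Lfng, which encodes a glycosyltransferase that modifies Notch receptors, was at 1.35 ± 0.543 CPM in SPOC Dox+Auxin cells and 0.572 ± 0.184 CPM in SPOC Dox cells (log2 fold change 1.25, SE 0.25, edgeR adjusted p = 2.1e-04). In GFP cells Lfng was at 2.10 ± 0.147 CPM with Dox+Auxin and 0.842 ± 0.125 CPM with Dox (1.30, SE 0.24, edgeR adjusted p = 4.0e-05). Neurl1a, which encodes an E3 ubiquitin ligase, rose in the SPOC line (0.48, SE 0.07) and in the GFP line (0.69, SE 0.08). Dtx4, of the Deltex family, was at 0.20 (SE 0.13, adjusted p = 0.27) in the SPOC line and rose in the GFP line (0.99, SE 0.15, adjusted p = 2.5e-06), and this difference between lines was called (-0.79, SE 0.20, adjusted p = 0.014). Mfng rose in the GFP line (0.50, SE 0.07, adjusted p = 3.6e-07) and in the SPOC line (0.17, SE 0.06, adjusted p = 0.033), where the call was lost with these groups alone in the fit (adjusted p = 0.071) and without any 1 of Dox replicates 1, 4 and 5 and Dox+Auxin replicates 1, 2 and 3 (adjusted p 0.059 to 0.11).

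Of the 8 other genes of the activator complex, 1 rose and 2 fell in each line (37.5% called, near the share of all genes in the SPOC line and below it in the GFP line). Maml1, a Mastermind gene, rose in the GFP line (log2 fold change 0.18, SE 0.05, adjusted p = 0.0014) and in the SPOC line (0.11, SE 0.04, adjusted p = 0.046). The SPOC call of Maml1 was lost without the filter (adjusted p = 0.085), with these groups alone in the fit (adjusted p = 0.089) and without any 1 of Dox replicates 2, 3 and 4 and Dox+Auxin replicates 4 and 5 (adjusted p 0.08 to 0.17). Maml2 and Ep300 were not called in either line, except that Ep300 was called in the GFP line without Dox+Auxin replicate 4 (adjusted p = 0.016), and Kat2b, a histone acetyltransferase gene, fell in the GFP line (-0.16, SE 0.04, adjusted p = 4.2e-04) and was at -0.04 (SE 0.03) in the SPOC line.

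Of the 21 corepressor genes, 5 rose and 10 fell in the SPOC line (71.4% called, against 32.0% of all genes). In the GFP line 8 rose and 10 fell (85.7% called, against 47.6% of all genes). These counts include Tbl1x and another gene of the X chromosome, on which Xist acts. Spen was the largest riser. Bend6, which encodes an antagonist of Notch that binds RBPJ, rose to 1.79 ± 0.325 CPM in SPOC Dox+Auxin cells, against 1.13 ± 0.226 CPM in SPOC Dox cells (log2 fold change 0.67, SE 0.16, edgeR adjusted p = 0.0019). In GFP cells Bend6 was at 2.23 ± 0.281 CPM with Dox+Auxin and 1.08 ± 0.246 CPM with Dox (1.04, SE 0.18, edgeR adjusted p = 1.1e-05). Aes, a short member of the Groucho family, fell in the SPOC line (-0.29, SE 0.04, adjusted p = 2.6e-06) and in the GFP line (-0.59, SE 0.05, adjusted p = 1.0e-11). Tbl1x, an X-linked gene for a subunit of the NCoR complex, rose in the SPOC line (0.22, SE 0.05, adjusted p = 0.003) and in the GFP line (0.79, SE 0.06, adjusted p = 3.6e-11). Tbl1x was at 209.3 ± 5.89 CPM in SPOC Dox cells and 299.3 ± 34.0 CPM in SPOC untreated cells, and at 201.9 ± 3.43 CPM in GFP Dox cells and 330.5 ± 8.07 CPM in GFP untreated cells, so Xist silencing of the X chromosome and the other effects of each treatment cannot be told apart for it.

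Of the 10 other target genes tested, 1 rose and 4 fell in the SPOC line (50% called, against 32.0% of all genes), and 2 rose and 3 fell in the GFP line (50% called, near the 47.6% of all genes). Id1, which encodes an inhibitor of differentiation factors, was at 13.3 ± 3.89 CPM in SPOC Dox+Auxin cells and 19.1 ± 3.64 CPM in SPOC Dox cells (log2 fold change -0.52, SE 0.16, edgeR adjusted p = 0.017), a call lost with these groups alone in the fit (adjusted p = 0.097) and without SPOC Dox replicate 4 (0.054) or SPOC Dox+Auxin replicate 2 (0.055). In GFP cells Id1 was at 5.86 ± 1.06 CPM with Dox+Auxin and 18.01 ± 1.26 CPM with Dox (-1.62, SE 0.20, edgeR adjusted p = 3.3e-07). Id3, a related gene, fell in the SPOC line (-0.59, SE 0.11, adjusted p = 1.0e-04) and in the GFP line (-1.33, SE 0.13, adjusted p = 2.6e-09). Myc, which encodes a growth-promoting transcription factor, fell in the SPOC line (-0.56, SE 0.13, adjusted p = 0.0015) and in the GFP line (-1.28, SE 0.15, adjusted p = 2.0e-07). Nfkb2 was at -0.01 (SE 0.07) in the SPOC line and rose in the GFP line (0.41, SE 0.08, adjusted p = 1.0e-04). Id1, Id3 and Myc thus fell in both lines, in which Hey1 and Nrarp rose.

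Across all 27 libraries, the genes whose log2 CPM followed each of the 8 most closely were named by Pearson's r among 12304 genes, with no test, since libraries of a group share their treatment and the libraries fall into groups. For Jag1 these were Mobp (0.988) and Pcyox1l (0.981), for Notch1 Frem2 (0.973) and Vcan (0.939), and for Notch3 Atp6v0a1 (0.925) and Cbs (0.901). For Nrarp they were Plekhm2 (0.965) and Limk2 (0.960), for Hey1 Cldn4 (0.940) and Ank3 (0.932), and for Rbpj Slc44a1 (0.944) and Rybp (0.938). For Hes1 they were Ric8a (0.896) and Poglut1 (0.881), where Poglut1 is a gene for a glucosyltransferase that modifies Notch receptors. For Dll1 they were Gpr157 (0.882) and Bhlhe41 (0.874). None of these closest pairs joined members, yet several of the 8 genes followed each other. Among Jag1, Notch1, Notch3, Hey1 and Nrarp, r ran from 0.430 for Notch3 and Hey1 to 0.917 for Jag1 and Nrarp. It was 0.894 for Notch1 and Nrarp, 0.858 for Jag1 and Hey1, and 0.841 for Jag1 and Notch1. Notch3 was at 0.814 with Nrarp and 0.804 with Notch1. Rbpj ran the other way, at -0.867 with Jag1 and -0.838 with Hey1, and Dll1 stayed between -0.437 and 0.111 with each of the other 7.

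Markers of other cell types also moved with Dox+Auxin. The 6 neural markers summed to 202.4 to 268.3 CPM in SPOC Dox+Auxin cells, against 138.4 to 176.3 CPM in SPOC Dox cells, and to 225.1 to 239.5 CPM in GFP Dox+Auxin cells, against 152.3 to 174.7 CPM in GFP Dox cells, with Neurog2 between 0 and 0.0878 CPM in all libraries. The 5 trophoblast markers summed to 87.1 to 145.3 CPM in SPOC Dox+Auxin cells, against 55.3 to 79.9 CPM in SPOC Dox cells, and to 148.6 to 157.5 CPM in GFP Dox+Auxin cells, against 63.5 to 68.7 CPM in GFP Dox cells. The 5 formative and primed markers summed to 183.1 to 224.6 CPM in SPOC Dox+Auxin cells, against 300.4 to 325 CPM in SPOC Dox cells, and to 224.7 to 244.4 CPM in GFP Dox+Auxin cells, against 417.7 to 437.7 CPM in GFP Dox cells. The marker calls that follow stand beside 32.0% of all genes called in the SPOC line and 47.6% in the GFP line. Of the 4 neural markers tested, 2 rose and 1 fell in each line. Of the 4 trophoblast markers tested, 2 rose and 1 fell in the SPOC line, and 2 rose and 0 fell in the GFP line. Of the 5 formative and primed markers, 3 fell in the SPOC line, and 2 fell and 1 rose in the GFP line. Of the 7 naive markers 4 fell and 1 rose in the SPOC line, and 5 fell and 1 rose in the GFP line. Of the 3 mesoderm markers tested, 0 were called in the SPOC line and 2 rose in the GFP line. The 5 primitive endoderm markers summed to 6.78 to 11.9 CPM in all libraries, of which 0 were called in the SPOC line and 1 fell in the GFP line. The 6 feeder cell markers summed to 9.69 to 15.9 CPM in SPOC Dox+Auxin cells, against 13.5 to 21.6 CPM in SPOC Dox cells, and to 11.2 to 13.9 CPM in GFP Dox+Auxin cells, against 16.3 to 20.8 CPM in GFP Dox cells. Of these, Col1a1 (7.83 to 14.8 CPM in all libraries) and Col1a2 (1.23 to 8.29 CPM) were tested, and 1 of them fell in the SPOC line and 2 in the GFP line, while Col3a1, Dcn, Lum and Postn stood between 0 and 0.209 CPM. The part of these shifts in the results for the 8 genes was not tested.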

How the data were processed

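Total RNA of 27 samples was sequenced from TruSeq libraries as paired ends, per the labels' protocols. Per the submitters' processing notes, which give no order, tools included STAR 2.5.3a for mm10, featureCounts and Trim Galore 0.4.4. For the annotation and for strands, the setting is not given in sources used here. The deposited table holds raw read counts per gene, used as they are. The deposited RPKM values were checked to be counts per kilobase after 1 factor per library, on a scale 33.8 to 35.2 times that of CPM per kilobase, and were not used. The 54 columns of allelic counts were not used. Names came from GENCODE M21, which held 53706 of 53801 IDs; rows that name no gene numbered 0.

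One edgeR 4.0.16 fit (R 4.3.3, with TMM, filterByExpr and the robust quasi-likelihood test) over all 27 libraries gave 10 comparisons. The fit was run beforehand on simulated counts for Dox+Auxin against Dox of the GFP line only. Genes were called at a Benjamini-Hochberg adjusted p under 0.05 over 18363 genes; the SE came from the fold change and its F statistic. Within groups, each of 48 library pairs had a chi-square per gene above that of sampling noise (1.76 to 14.7). The lowest was that of SPOC Dox+Auxin replicates 1 and 2, and the next lowest of any pair was 2.75. Other pairs of SPOC Dox+Auxin libraries had 6.62 to 13.2. Whether replicates 1 and 2 of that group share a culture is not known. Whether libraries came from separate cultures is known only from the design text, which calls them biological; p-values measure the spread between these libraries. Alternatives were DESeq2 size factors, TMM from autosomal genes, the DESeq2 1.42.0 Wald test, no filter, a replicate block, the compared groups alone, and each library left out. In Dox+Auxin against untreated of the GFP line, same-numbered libraries deviated together (r 0.103 to 0.214 in 4 of 4 pairs, a pairing seen in the data); with the block 8499 genes were called there, against 7019, and no call of the 8 genes changed.

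The 8 genes and all lists were chosen with earlier results of these data known. Of the list, the text names in each role up to 4 genes averaging 1 CPM or more that had the largest absolute change in Dox+Auxin against Dox of the GFP line, and any called in opposite directions in both lines; for likeness, it names the 2 closest genes. One gene that this rule names is not reported here.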

Additional observations from a re-analysis of the deposited data

Results flagged for a closer look

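The response of 4 of the 8 genes to Dox+Auxin over Dox differed between the lines by the test of that difference itself (edgeR, SPOC minus GFP on the log2 scale). Dll1 differed by -1.78 (adjusted p = 0.0024), with opposite directions in the lines. Hey1 differed by -0.68 (adjusted p = 0.02), Nrarp by -0.35 (adjusted p = 0.04) and Jag1 by -0.29 (adjusted p = 4.7e-04), each with a smaller rise in the SPOC line. With Dox alone Hey1 averaged 4.81 CPM in the SPOC line and 3.53 CPM in the GFP line. Hey1 was not called between lines with Dox+Auxin. The Nrarp call was lost when single libraries were left out, as given above. Spen mRNA differed by -0.55 (SE 0.16, adjusted p = 0.035) in the same SPOC minus GFP comparison. With Dox alone Spen was already at 352.6 CPM in the SPOC line and 196.9 CPM in the GFP line. The SPOC construct holds part of the Spen sequence. With Dox+Auxin it was at 1052 CPM in the SPOC line and 860.5 CPM in the GFP line, a difference not called. What the smaller fold change of Spen reflects was not tested. Dixon's test flagged 0 of the 48 sets of values of a gene in a group. With 4 or 5 libraries per group it can flag only a large gap, so it does not show that no library stood apart.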

How the results depend on the processing

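Of 1328 recomputed values of the 8 genes (6 settings and 27 left-out libraries), 1243 kept their direction and side of the threshold, 47 lost the call, 15 gained it and 23, none of them called, changed sign; in Dox+Auxin against Dox, 253 of 256 kept both. Of 736 values of the 23 other named genes, 695 kept both, 28 lost the call, 3 gained it and 10 changed sign. Replicate numbers were taken to pair libraries only where each same-numbered pair of a comparison correlated above 0.1, which held for 1 comparison, Dox+Auxin against untreated of the GFP line; over all comparisons within lines 16 of 27 pairs did (-0.116 to 0.462), the 9 of SPOC replicates 3, 4 and 5 among them, and 14 of 27 libraries correlated best with their own number, a hint of shared batches from the data and not the design. With a replicate block, genes called numbered 4145, against 2478, in Dox against untreated of the SPOC line (list: 25 against 16) and 3317, against 1495, for the difference between lines (list: 32 against 20), and Hes1 in untreated SPOC against GFP was at -0.0013. The block lost no call of the 8 genes and gained 7: Hes1 in Dox+Auxin against Dox (adjusted p = 0.038), Rbpj in Dox+Auxin against untreated (0.0054) and Notch3 in Dox against untreated (0.046) of the SPOC line, Dll1 in Dox against untreated of the GFP line (0.016), Notch1 in SPOC against GFP with Dox+Auxin (0.02), and Rbpj (0.011) and Hes1 (0.025) in the difference between lines; of the list genes named, Jag2 (0.0087) and Notch4 (0.043) gained one in Dox+Auxin against Dox of the GFP line. Without the filter, the list count for untreated SPOC against GFP was 6, against 10, and Rbpj in Dox SPOC against GFP was at -0.0146 (-0.0007 by DESeq2). Leaving out each library in turn gave 1035 to 2171 calls for untreated SPOC against GFP (2122 with all; list 3 to 10; lowest without GFP untreated replicate 2), 1260 to 2078 for Dox SPOC against GFP (1962 with all; list 8 to 15; 1260 without GFP Dox replicate 2, 8 without GFP Dox replicate 1) and a list count of 12 to 20 for the difference between lines (12 without GFP Dox replicate 4). It moved these uncalled log2 values through 0. In Dox+Auxin against Dox they were Notch2 in the GFP line (-0.0156 to 0.1685) and, in the SPOC line, Aph1c (-0.1529 to 0.0174), Maml2 (-0.1668 to 0.0903), Ep300 (-0.0247 to 0.0314) and Nfkb2 (-0.0628 to 0.0405). In Dox+Auxin against untreated it was Dll1 in the GFP line (-0.0027 to 0.2562). In Dox against untreated they were Nrarp in the GFP line (-0.0043 to 0.0962), and Dll1 (-0.2256 to 0.0923) and Hey1 (-0.1013 to 0.0642) in the SPOC line. In SPOC against GFP they were Hes1 (-0.0026 to 0.0583) and Hey1 (-0.0038 to 0.1340) in untreated cells, and Dll1 (-0.1141 to 0.2373) and Rbpj (-0.0298 to 0.0174) in Dox cells. For the difference between lines it was Notch1 (-0.1447 to 0.0182). The cause of these changes was not tested. Depth limits Dll1 most, at 12 to 85 counts per library.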
